A study of Mus musculus with 2 samples.

Results

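The 4318 regions described here were open chromatin sites away from promoters that were listed in replicate 1 of a pair of haematopoietic stem cell libraries and not in replicate 2. They were chosen from the deposited peak lists. Overlapping peaks of the thresholded list of replicate 1 were merged into 34588 regions, and 23033 of these were distal, with a summit over 1 kb from every protein-coding transcription start site (TSS). The 4318 were the distal regions that overlapped no peak of the thresholded list or of the longer, more permissive pseudoreplicated list of replicate 2, which was 18.7% of the distal regions (95% Wilson interval 18.2 to 19.3, counting error only). The other 18715 distal regions overlapped a peak of replicate 2, 10352 of them in its thresholded list and 8363 in its pseudoreplicated list alone. Absence from replicate 2 and presence in replicate 1 are the choice itself and not a result.

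The assay was ATAC-seq, which reads open chromatin through adapters that a transposase places wherever DNA is accessible to it. The series holds 1 group of 2 libraries, numbered as biological replicates 1 and 2, and both were made from haematopoietic stem cells taken from C57BL/6J mice, as adults of 5 to 6 weeks. Both carry 1 donor identifier, sex was not collected, no markers used to sort the cells are named, and a starting amount of 50000 cells is given for replicate 2 alone. Whether the libraries came from separate animals is unknown, and differences between them may be technical. With 1 library on each side no test of a difference between the libraries could be made, so shares are given as descriptions with Wilson intervals.

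Haematopoietic stem cells sit at the top of blood formation in the marrow, and they give rise to progenitors that commit step by step to the red cell, platelet, myeloid and lymphoid lineages. Distal open sites are often enhancers or insulators, where sequence-specific factors displace nucleosomes, and they vary more between cell types than promoters do. PU.1 and RUNX factors act across stem and progenitor cells. The CCAAT/enhancer binding proteins (C/EBP) direct progenitors into the granulocyte and monocyte lineages, with C/EBPα needed to form granulocyte-monocyte progenitors and C/EBPε for the late steps of granulocyte maturation, and they bind as dimers to the sequence TTGCNNAA.

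The sequences shown first are windows of 201 bp centred on region summits (GRCm38, the sequence of mm10), because a C/EBP match was the sequence feature that stood out among the regions in replicate 1 only. Capitals mark a match to TTGCNNAA or its reverse complement. The first lines are the windows with a match at 4 genes of the neutrophil and granulocyte list, Mpo (myeloperoxidase), Ltf (lactoferrin), Cybb (the catalytic subunit of the phagocyte NADPH oxidase) and Alox5ap (a protein needed for leukotriene synthesis), chosen after their values were seen, and the window of highest signal that could be printed, nearest Usp32, a deubiquitinase gene. Only these 4 of the 20 regions in replicate 1 only nearest genes of that list held a match, beside 22.9% of all 4318. Matches were thus not more frequent at this list than in the whole set.
Mpo window, chr11:87790216-87790416, plus strand: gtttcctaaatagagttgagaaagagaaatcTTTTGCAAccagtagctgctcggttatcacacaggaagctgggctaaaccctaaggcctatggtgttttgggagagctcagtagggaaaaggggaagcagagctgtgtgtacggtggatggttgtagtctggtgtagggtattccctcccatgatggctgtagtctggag
Ltf window, chr9:111006642-111006842, plus strand: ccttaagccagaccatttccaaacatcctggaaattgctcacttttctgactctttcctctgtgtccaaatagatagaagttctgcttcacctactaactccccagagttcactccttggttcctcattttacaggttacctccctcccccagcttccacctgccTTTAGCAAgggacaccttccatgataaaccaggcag
Cybb window, chrX:9460670-9460870, plus strand: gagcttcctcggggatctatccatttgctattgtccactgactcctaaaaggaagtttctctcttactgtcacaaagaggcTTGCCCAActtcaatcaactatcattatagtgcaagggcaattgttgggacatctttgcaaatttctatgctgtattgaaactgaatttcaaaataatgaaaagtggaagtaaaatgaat
Alox5ap window, chr5:149274498-149274698, plus strand: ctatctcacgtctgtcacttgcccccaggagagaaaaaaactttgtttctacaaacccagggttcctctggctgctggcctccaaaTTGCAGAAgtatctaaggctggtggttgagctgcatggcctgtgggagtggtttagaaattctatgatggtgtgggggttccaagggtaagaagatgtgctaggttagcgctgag
Usp32 window, chr11:85003632-85003832, plus strand: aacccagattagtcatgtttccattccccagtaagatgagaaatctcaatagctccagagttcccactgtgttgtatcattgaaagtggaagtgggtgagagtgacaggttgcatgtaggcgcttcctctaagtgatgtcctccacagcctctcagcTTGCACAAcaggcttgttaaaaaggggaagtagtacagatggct
The next lines are the windows of highest signal at the leading genes of the neutrophil, monocyte and stem cell factor lists, none of which held a match: Cybb again, Tlr2, a receptor for bacterial lipoproteins, and Etv6, an ETS factor that stem cells need in adult marrow.
Cybb window, chrX:9470875-9471075, plus strand: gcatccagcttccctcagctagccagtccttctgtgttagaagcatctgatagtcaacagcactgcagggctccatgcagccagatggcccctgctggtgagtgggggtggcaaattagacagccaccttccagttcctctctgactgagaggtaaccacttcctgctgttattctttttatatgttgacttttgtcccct
Tlr2 window, chr3:83885216-83885416, plus strand: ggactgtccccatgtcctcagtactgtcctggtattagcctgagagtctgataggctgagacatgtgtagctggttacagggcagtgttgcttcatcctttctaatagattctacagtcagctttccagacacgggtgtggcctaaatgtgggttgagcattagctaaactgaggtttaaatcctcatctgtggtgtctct
Etv6 window, chr6:134073027-134073227, plus strand: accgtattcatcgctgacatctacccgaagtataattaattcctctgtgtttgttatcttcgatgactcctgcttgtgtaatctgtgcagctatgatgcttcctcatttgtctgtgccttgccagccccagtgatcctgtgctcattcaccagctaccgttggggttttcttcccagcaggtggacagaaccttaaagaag
The match in the Usp32 window has the form TTGCACAA, which was the commonest form among the regions in replicate 1 only.

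C/EBP matches were present in 988 of the 4318 windows of the regions in replicate 1 only, or 22.9% (21.7 to 24.2), and in 1919 of the 18715 windows of the other distal regions, or 10.3% (9.83 to 10.7). Flanking windows centred 500 bp to each side of the same summits held the sequence in 8.93% and 8.14% of cases, so the regions in replicate 1 only stood well above their flanks and the other distal regions a little above theirs. Among all 23033 distal windows the share was 12.6%. Read the other way, 34.0% (32.3 to 35.7) of the 2907 distal windows with a match belonged to regions in replicate 1 only, against 16.5% (16.0 to 17.1) of the 20126 windows without one. The 178 distal regions of replicate 2 that overlapped no thresholded or pseudoreplicated peak of replicate 1 held a match in 10 windows (5.62%, 3.08 to 10.03).

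**Figure D1:**
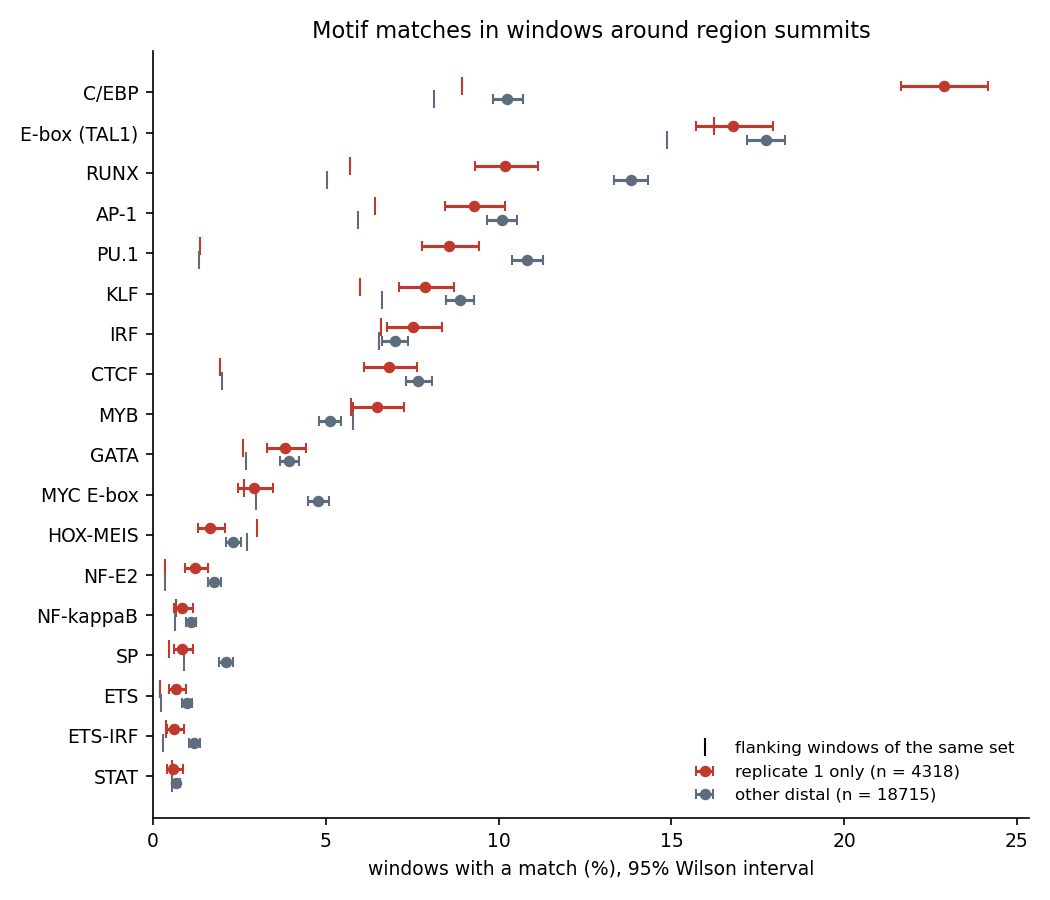
Share of windows of 201 bp with a match for each of 18 motifs (points, with 95% Wilson intervals), for regions in replicate 1 only (red, upper point of each pair) and other distal regions (grey, lower point), with vertical ticks for flanking windows of the same set. The C/EBP share was 22.9% in regions in replicate 1 only and 10.3% in the others, while PU.1 and RUNX were lower in the regions in replicate 1 only.

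Most other motifs were less frequent in the regions in replicate 1 only. PU.1, the ETS factor of myeloid and B cell development (GAGGAAGT), was matched in 8.57% (7.77 to 9.44) of them and in 10.8% (10.4 to 11.3) of the others. RUNX factors (TGTGGTT) were matched in 10.2% (9.32 to 11.1) and 13.8% (13.3 to 14.3). Both motifs were nonetheless above their flanks, at 1.34% and 5.70% around the regions in replicate 1 only. The insulator protein CTCF (AGNGGGCNC) was matched in 6.83% (6.12 to 7.62) and 7.68%, the FOS and JUN dimer AP-1 (TGANTCA) in 9.29% and 10.1%, and GATA factors (AGATAAG) in 3.82% and 3.93%. Of the 18 motifs searched on both strands, MYB (TAACNGT) was the only one besides C/EBP whose interval in the regions in replicate 1 only, 5.79 to 7.26 around 6.48%, lay wholly above that of the others, at 5.11% (4.80 to 5.43), although its flanks were at 5.72% and 5.79%. The NF-E2 letters (GCTGAGTCA) contain an AP-1 match, and the C/EBP letters contain no other motif searched. Motifs rich in CG pairs were lower, with SP factors (GGGGCGGGG) at 0.834% and 2.10%, and MYC and MAX (CACGTG) at 2.92% and 4.78%.

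The C/EBP share was lower the more of replicate 2's evidence a region had. The series' replicated list, made from both libraries, held 2270 of the regions in replicate 1 only (52.6%), and these had a match in 15.4% of windows (13.9 to 16.9). The 2048 regions absent from that list had one in 31.2% (29.2 to 33.2). Regions found only in the pseudoreplicated list of replicate 2 had one in 11.1% (10.5 to 11.8), and those in its thresholded list in 9.56% (9.01 to 10.1). CTCF did not follow this order, at 3.71% of the 2048 regions outside the replicated list, 9.65% of the 2270 inside it, 8.87% with the pseudoreplicated list of replicate 2 alone and 6.71% with its thresholded list. RUNX ran the opposite way from C/EBP, at 9.62%, 10.7%, 11.9% and 15.3% over the same 4 steps. Median signal in replicate 1 (7.89, 8.20, 8.55 and 9.92) and median GC content (46.8%, 47.8%, 49.8% and 52.7%) moved along the same steps, and their part in the order was not tested.

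**Figure D2:**
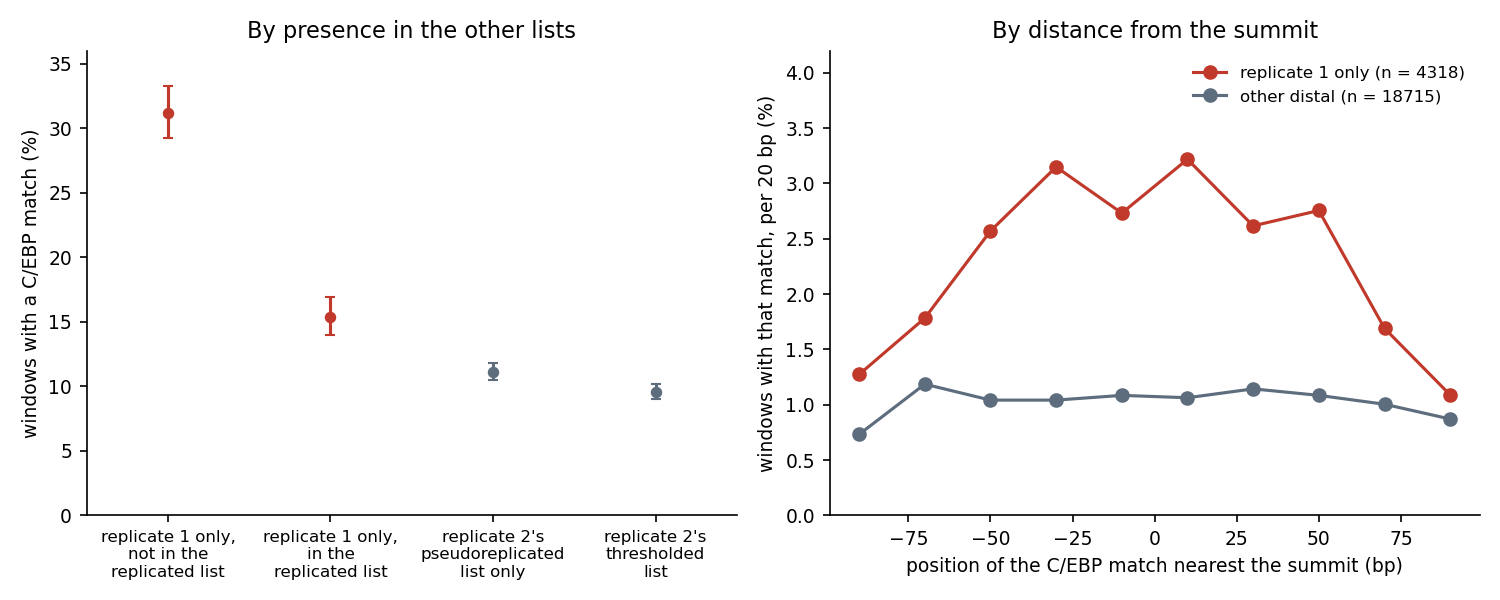
Left: share of windows with a C/EBP match, with 95% Wilson intervals, in regions in replicate 1 only outside and inside the replicated list (red) and in regions also in the pseudoreplicated or thresholded list of replicate 2 (grey). Right: share of windows whose C/EBP match nearest the summit fell in each 20 bp step, where matches in regions in replicate 1 only reached 3.22% next to the summit and those in other distal regions ran between 0.732% and 1.19%.

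C/EBP matches were also nearer the summit in the regions in replicate 1 only. Among windows with a match, 31.5% (28.7 to 34.4) had it within 25 bp of the summit in the regions in replicate 1 only and 25.6% (23.7 to 27.6) in the others. A second match was present in 139 windows of each set, which was 14.1% of those with a match in the regions in replicate 1 only and 7.24% in the others. The leading form, TTGCACAA, made up 16.1% (13.9 to 18.5) and 10.2% (8.89 to 11.6) of windows with a match. Windows with a C/EBP match held a CTCF match less often in the regions in replicate 1 only, at 2.94% (2.05 to 4.18), than their windows without one, at 7.99% (7.11 to 8.96). The direction was the same in the other distal regions, at 6.04% (5.06 to 7.20) with a C/EBP match and 7.86% (7.47 to 8.28) without.

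The regions in replicate 1 only were poorer in G and C, which bears on any motif count. Their median GC content was 47.3%, against 51.2% in the other distal regions, and their windows held 2.71 and 4.27 CG pairs on average. The C/EBP difference was nevertheless present within each quartile of distal windows by GC content. From the lowest to the highest quartile the shares in regions in replicate 1 only and in the others were 26.1% and 14.1%, 22.2% and 11.8%, 20.4% and 9.44%, and 13.3% and 6.66%. It was likewise present within each quartile by signal, at 22.3% and 9.72%, 21.9% and 10.2%, 23.7% and 10.5%, and 26.3% and 10.6%.

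Signal was lower in the regions in replicate 1 only, with wide overlap. The signal of a peak is the authors' value, with no stated control or scaling. Signal, width, score and presence in the series' lists come from the libraries that chose the regions, and they are given as a description. Its median was 8.03 (quartiles 6.80 and 9.41, range 2.03 to 20.4) in the regions in replicate 1 only and 9.21 (7.65 and 11.2, up to 41.3) in the others. The regions were also narrower, with median widths of 371 bp and 490 bp. The share found in replicate 1 only fell in every step from 31.0% (29.2 to 33.0) in the decile of distal regions with the lowest signal to 4.30% (3.54 to 5.20) in the decile with the highest. The score by which the list ranks peaks for their reproducibility (irreproducible discovery rate, IDR) was at its ceiling of 1000 in 4.42% and 23.7% of regions.

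**Figure D3:**
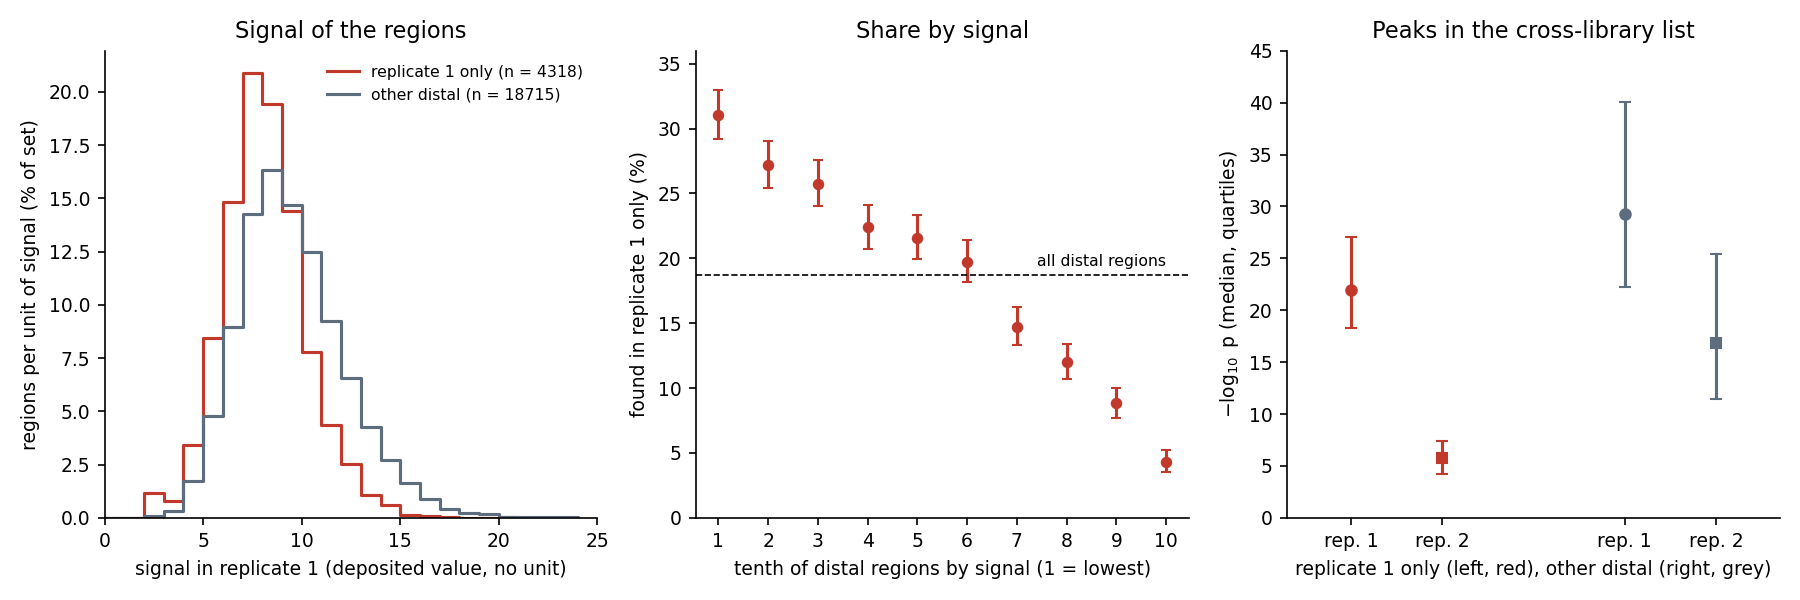
Left: signal in replicate 1 of regions in replicate 1 only (red) and other distal regions (grey), as the share of each set per unit of signal. Middle: share of distal regions found in replicate 1 only by decile of signal (95% Wilson intervals; dashed line, all distal regions), from 31.0% to 4.30%. Right: median −log10 p with quartiles in the first input (rep. 1) and second input (rep. 2) of the joint ranked list, where the red set had 22.0 and 5.79. The contrast follows largely from the choice of regions, and the source of the second input was not traced separately in the red set.

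The lists that use both libraries held part of the set. The series' IDR thresholded list held 2822 of the regions in replicate 1 only (65.4%) and 98.1% of the others. Its conservative list held 261 (6.04%) and 85.3%. The series' own pseudoreplicated list, made from both libraries, held 4259 (98.6%). Its signal was at the median 0.717 times that of replicate 1 in the regions in replicate 1 only and 0.890 times in the other distal regions. The ranked list of replicate 2 overlapped 23 of the 4318 (0.533%, 0.355 to 0.798) and all 18715 of the others. It was not named in the choice but comes from the same library as the lists that were. Its low overlap therefore follows largely from the choice and is no independent check.

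Values of 2 inputs at part of the regions could be read from a ranked list of the series that joins them. By coordinates and value, 83.1% of the first input's peaks were those of replicate 1's own lists and 72.6% of the second input's were those of replicate 2's. The trace covers the whole list and was not made for the regions in replicate 1 only. Of these 4318, 23 overlapped a ranked peak of replicate 2, so the trace does not show the second input's source there. The joint list held 2274 of the regions in replicate 1 only, with a median −log10 p, the evidence for a peak within an input, of 22.0 (quartiles 18.3 and 27.1) in the first input and 5.79 (4.23 and 7.43) in the second. The second input had the higher value in 4 of them. In the other 18715 distal regions the medians were 29.3 and 16.8, and the second input was higher in 1703. This contrast between the sets follows largely from the choice of regions and is no independent check. Over 50% of the regions in replicate 1 only thus had a peak of the second input in this joint list, and 2044 were not in it. Second-input values of the 2 sets overlapped. The region in replicate 1 only with the highest signal, nearest Nedd4l, had 12.996, and a region nearest Tbc1d2b that replicate 2 listed had 4.48.

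Position relative to genes differed little between the sets. Introns held 1989 summits of the regions in replicate 1 only (46.1%, 44.6 to 47.6) and 43.6% (42.9 to 44.4) of the others, and intergenic sequence held 50.4% and 52.3%. Coding exons held 1.30% and 2.05%, and untranslated regions 2.27% and 2.04%. The median distance to the nearest protein-coding TSS was 22.3 kb and 22.5 kb, and 14.6% and 14.2% of summits lay over 100 kb from one. Fewer regions in replicate 1 only lay within 1 kb of the TSS of any annotated transcript, such as a noncoding RNA, at 6.95% (6.23 to 7.74) and 10.2% (9.76 to 10.6). Of promoter regions, few were in the class: 375 of the 11555 promoter regions of replicate 1 (3.25%) were in replicate 1 only.

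By chromosome the share in replicate 1 only ran from 15.6% on chromosome 11 to 22.0% on chromosome 1 among the autosomes, and on the X chromosome it was 116 of 436, or 26.6% (22.7 to 30.9). Sequence repeated elsewhere was rare. The window matched another place in the genome in 88 regions in replicate 1 only (2.04%) and in 2.24% of the others, and over 50% of the window was soft-masked as repeat in 3.45% and 1.53%.

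At the limits of the choice, the lowest score in the thresholded list was 540, which 10 regions in replicate 1 only had, with signal from 6.58 to 9.54. The 65 ranked peaks of replicate 1 with a score of 539, just below, had signal from 1.84 to 10.5. The summit nearest a protein-coding TSS lay 1002 bp from it, and the farthest promoter summit in replicate 1 only lay at 998 bp. The closest peak of replicate 2 lay 9 bp away, 492 regions (11.4%) had one within 1 kb, and the median gap was 7.49 kb. The smallest overlap that kept a region out was 7 bp. Another region of replicate 1 lay within 1 kb of 515 regions in replicate 1 only (11.9%) and of 8.03% of the others. For 311 of the 515 such a neighbour was itself not in the set.

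The regions were spread thinly over genes. Assigning each summit to the protein-coding gene with the nearest TSS gave 3112 genes with at least 1 region in replicate 1 only, 14.3% of the 21829 protein-coding genes and 32.8% of the 9480 nearest any distal region of replicate 1. Of these, 2327 genes had 1 such region and 41 had 5 or more. A nearest gene is a label and not a target. Among the 1173 genes with 5 or more distal regions the median share in replicate 1 only was 16.7%, 333 genes had none, and 79 had at least as many in replicate 1 only as shared ones.

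Genes of neutrophils and granulocytes had the largest share of the 16 lists of cell type genes. Of the 50 distal regions nearest 31 genes of the list, 20 were in replicate 1 only (40%, 27.6 to 53.8), against 18.7% of all distal regions. Of the 31 genes, 15 (48.4%) had at least 1 such region, against 14.3% of protein-coding genes, many of which had no distal region. Among genes nearest any distal region the count was 15 of 25, against 32.8%. Gene counts do not track region shares: 9 of 20 stem cell factor genes (45%) had such a region, at a region share of 12.8%. The list was written with a granulocyte difference between the libraries at promoters already known, so it is no independent support. Granulocyte regions had low signal, with a median of 7.10 in the 20. Among the 36 regions at or under the median signal of replicate 1, 19 were in replicate 1 only (52.8%, 37.0 to 68.0), against 25% of all distal regions there, and above it the counts were 1 of 14 (7.14%) against 11.0%. In bulk libraries, fewer cells of a type and less open DNA per cell cannot be told apart.

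Granule and effector genes were spread through the list. Elane, encoding neutrophil elastase, had 1 distal region, 2.40 kb from its TSS, with a signal of 4.40 in replicate 1 and no peak in replicate 2's thresholded or pseudoreplicated list, although in the joint list its −log10 p was 12.9 in the first input and 9.80 in the second. Mpo had 2 regions: the one in replicate 1 only lay 3.27 kb upstream with a signal of 7.37 and the C/EBP match shown above, while the one 9.09 kb from the TSS had 7.37 in replicate 1 and 8.92 in replicate 2. Ltf was alike, with a region in replicate 1 only 12.5 kb from the TSS (7.37) and a shared one with 10.5 in replicate 1 and 8.61 in replicate 2. At both genes, then, 1 site was in both libraries and the other was in replicate 1 only. Camp, encoding the antimicrobial peptide cathelicidin, had 2 of its 3 distal regions in replicate 1 only, with signals of 7.56 and 8.68.

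The antimicrobial S100 proteins, receptors and enzymes gave most of the other granulocyte regions. S100a8 had its single distal region in replicate 1 only (6.47), and S100a9 had 1 of 2, with 6.24 in that region and 16.6 in the shared one. Single regions in replicate 1 only also lay nearest Cxcr2, the receptor for neutrophil-attracting chemokines (10.3), Fpr1, a receptor for bacterial peptides (7.20), Cd177 (7.56) and Ly6g (7.39, with 1 other copy of the window and so uncertain), surface proteins of neutrophils, and Hp, encoding haptoglobin (7.002). Each of these 5 genes had no other distal region. Cybb had 4 of 6 in replicate 1 only, all within introns and within 10.2 kb, with signals of 8.45, 4.78, 6.21 and 8.51. Its flanking shared regions had 9.54 and 10.5 in replicate 1 and 3.33 and 3.57 in replicate 2, whose signals have no stated common scale. The window of the second had 2 other copies and is uncertain. Alox5ap had 2 of 6 (5.11 and 5.76), and Padi4, which citrullinates histones in neutrophils, had 1 of 2 (5.74). The Alox5ap region with 5.76 (chr5:149274459-149274729) lay beside a shared one (chr5:149274814-149275137) and may be part of the same site.

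**Figure D4:**
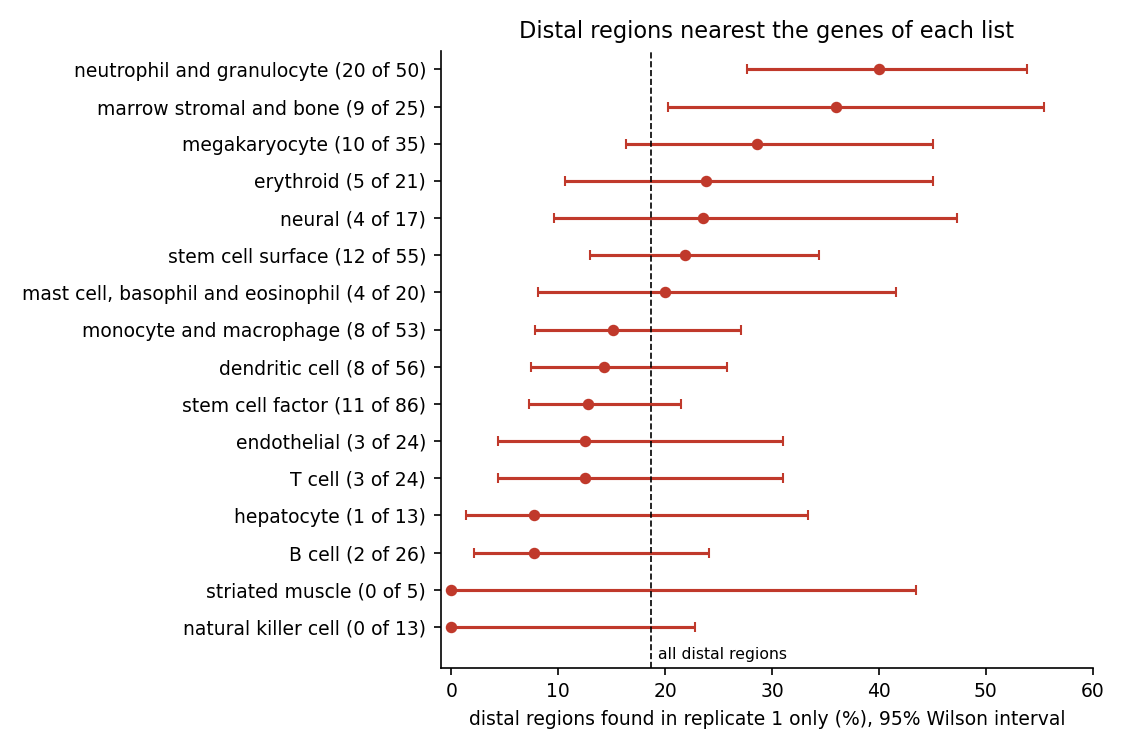
Share of the distal regions of replicate 1 nearest the genes of each of 16 lists that were in replicate 1 only, with 95% Wilson intervals and counts beside the names; the dashed line is the share among all distal regions. The granulocyte share was 40% and the marrow stromal share 36%, and the intervals of the other 14 lists included 18.7%.

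Other myeloid lists lay near the background. Monocyte and macrophage genes had 8 of 53 regions in replicate 1 only (15.1%, 7.85 to 27.1). Tlr2 had 3 of 5, among them the window shown above with a signal of 12.9, Cd14, the co-receptor for endotoxin, 1 of 1 (10.2), and Tlr4, the endotoxin receptor, 1 of 6 (9.61). Dendritic cell genes had 8 of 56 (14.3%), of which 5 lay nearest Id2, an inhibitor of basic helix-loop-helix factors, and 1 each nearest Tcf4, Irf4 and Zbtb46, factors of dendritic cell subsets. Mast cell, basophil and eosinophil genes had 4 of 20 (20%), 1 each nearest Hdc, which makes histamine, Il1rl1, the interleukin-33 receptor, Mitf, a mast cell factor, and Ccr3, the eotaxin receptor.

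Lymphoid lists were at the low end, with intervals that included the background. B cell genes had 2 of 26 in replicate 1 only (7.69%, 2.14 to 24.1), nearest Cd22 and Bach2. That list leaves out the immunoglobulin heavy chain locus, described below. Among its variable segments 17 of 29 distal regions were in replicate 1 only (58.6%, 40.7 to 74.5). T cell genes had 3 of 24 (12.5%), among them 1 each nearest Cd28 and Themis, which act in T cell receptor signalling. Natural killer genes had 0 of 13, which allows a share of up to 23.1% when 0 is read as at most 3 counts, with a Wilson upper limit of 22.8%.

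Red cell and platelet lists were above the background with intervals that included it. Erythroid genes had 5 of 21 (23.8%, 10.6 to 45.1), among them 1 each nearest Alas2, the first enzyme of haem synthesis in red cells, Sptb, a spectrin of the red cell membrane, and Tfrc, the transferrin receptor. Megakaryocyte genes had 10 of 35 (28.6%, 16.3 to 45.1). Of these 10, 7 lay nearest Thbs1, encoding thrombospondin-1 of platelet granules, and 3 nearest F2rl2, a thrombin receptor.

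Stem cell genes, listed for the labelled cell type, had many distal regions in replicate 1. Of the stem cell factor list, 17 of 20 genes had at least 1, beside 9480 of all 21829 protein-coding genes. The count was alike for dendritic cell genes (12 of 14) and granulocyte genes (25 of 31) and lower for T cell genes (9 of 20). It does not set the labelled cell type apart. Of the 86 regions nearest stem cell factor genes, 11 were in replicate 1 only (12.8%, 7.29 to 21.5). Etv6 had 3 of 11, with signals of 7.20, 5.04 and 7.12, and Runx1, Fli1, Erg, Meis1, Myb, Lmo2 and Lyl1 had 1 each. Stem cell surface genes had 12 of 55 (21.8%, 12.9 to 34.4), of which 6 of 14 lay nearest Cxcr4, the receptor for the marrow chemokine CXCL12, 2 of 10 nearest Cd34 and 2 of 5 nearest Kit, the stem cell factor receptor. The 6 at Cxcr4 had signals from 6.53 to 9.72, and 3 held a C/EBP match.

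Genes of other tissues served as a check for cells beyond the blood lineages. Marrow stromal and bone genes had 9 of 25 in replicate 1 only (36%, 20.2 to 55.5), 4 of them nearest Spp1, encoding osteopontin, which macrophages make as well, 2 nearest Col1a2 and 1 nearest Col1a1 (with 1 other copy and so uncertain), collagen genes, and the rest nearest Pdgfrb and Pparg. Endothelial genes had 3 of 24 (12.5%), nearest Cdh5, Egfl7 and Flt1. Hepatocyte genes had 1 of 13 (nearest Ttr), neural genes 4 of 17 (3 of them nearest Mbp) and striated muscle genes 0 of 5, which allows up to 60% by the same 3 counts and has a Wilson upper limit of 43.4%. The part of other cells in the set was not tested.

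The genes nearest the most regions in replicate 1 only were headed by Zfp386, a zinc finger gene, with 15 of 20. All 15 lay within the variable segments of the immunoglobulin heavy chain locus, for which Zfp386 is the nearest protein-coding gene in the annotation. From the first to the last variable segment TSS, chr12:113573402-116010093 (mm10), replicate 1 had 29 distal regions, and 17 were in replicate 1 only (58.6%, 40.7 to 74.5). Their signals ran from 5.98 to 11.5 with a median of 10.1, the 12 others had 7.52 to 15.0, and replicate 2 had 4 regions in this span. Of the 17, 9 lay within 1 kb of a segment's own TSS, so they would be promoters if these segments were counted. The window had other copies in the genome in 7, which are therefore uncertain, and 2 held a C/EBP match.

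Next was Trps1, a GATA-type repressor, with 11 of 19 regions in replicate 1 only, whose signals ran from 6.21 to 12.5 and of which 4 held a C/EBP match. Thbs1 had 7 of 15, all upstream, from 3.62 to 13.95, with 3 C/EBP matches. The Thbs1 region with 3.62 (chr2:117951024-117951267) lay beside a shared one (chr2:117951311-117951733) and may be part of the same site. Lmo4, a LIM-domain cofactor, had 7 of 15 and Chd7, a chromatin remodeller, 7 of 17. Zfp608 had 7 of 21 and Tbc1d2b 7 of 12. Close neighbours that may likewise be 1 site were present at Lmo4, Chd7 and Zfp608. Trib1, a pseudokinase known for promoting the breakdown of C/EBPα, had 6 of 16, Rbms1, a nucleic acid binding protein, 6 of 13, and Dusp6, a phosphatase of ERK kinases, 6 of 19 with 3 C/EBP matches. Dgkh, encoding diacylglycerol kinase eta, had 6 of 6, all intronic, with signals of 8.49, 6.14, 7.53, 10.2, 10.5 and 7.91 and 3 C/EBP matches. With Tmx4 it was 1 of 2 genes with 5 or more distal regions that all were in replicate 1 only. Gca, encoding the neutrophil protein grancalcin, had 5 of 6 with 3 C/EBP matches and a highest signal of 13.1, and it was chosen after its values were seen. Those 5 lay 8.71, 42.3, 51.2, 82.2 and 82.6 kb from its TSS. The last 2 were close neighbours (chr2:62746287-62746749 and chr2:62746806-62746955), with signals of 13.1 and 2.94, and may be 1 site.

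**Figure D5:**
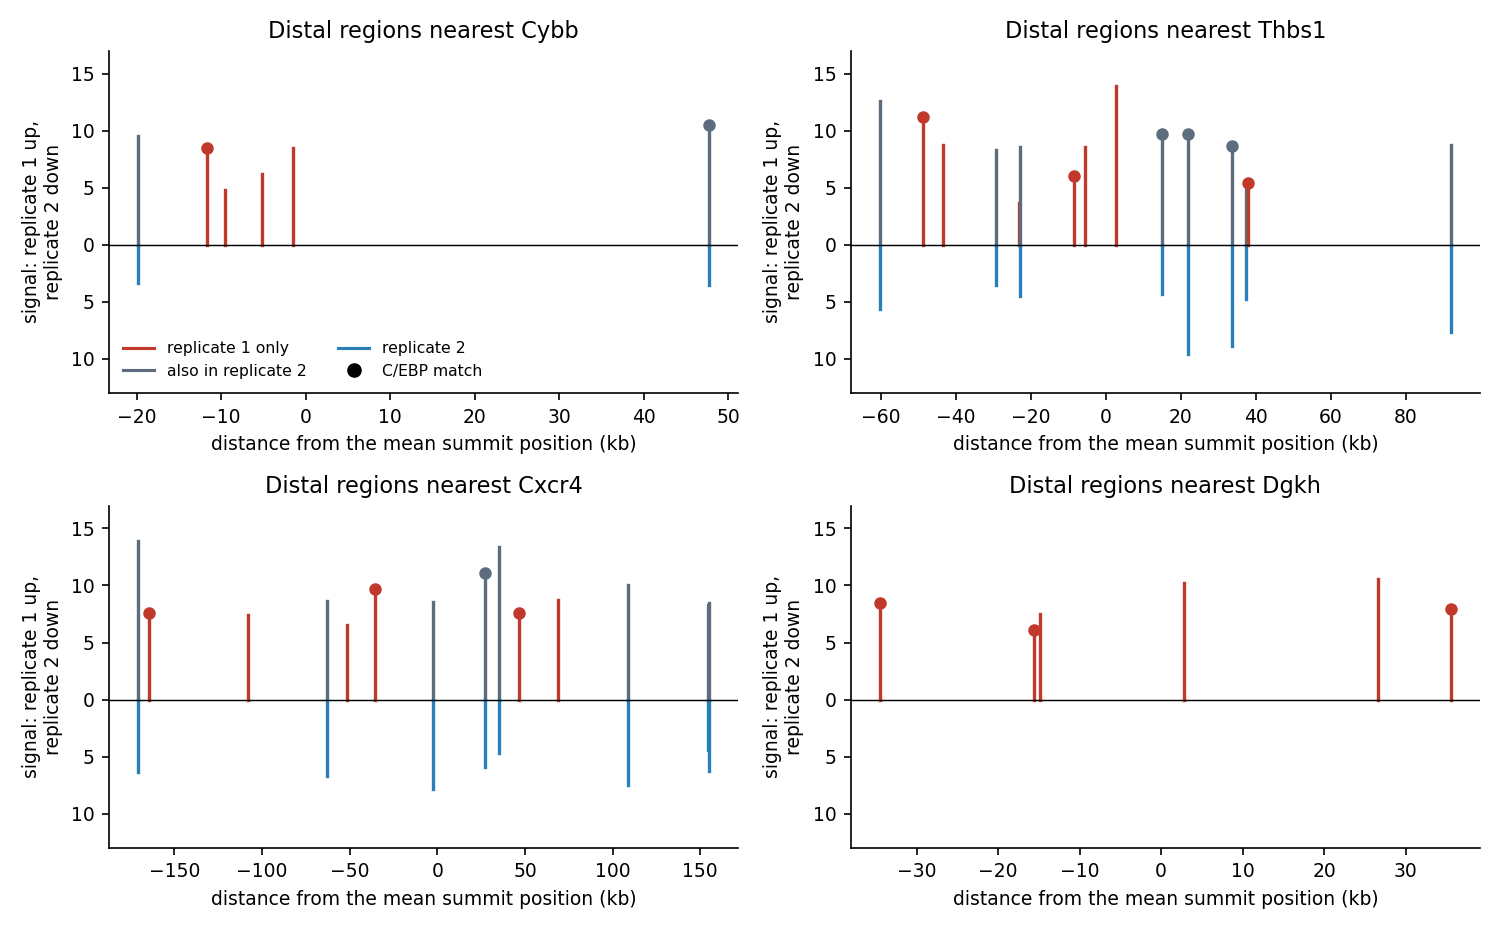
Signal of each distal region of replicate 1 nearest Cybb, Thbs1, Cxcr4 and Dgkh, by distance along the chromosome from their mean summit position. Regions in replicate 1 only are red and those also found in replicate 2 are grey, both drawn upwards, the signal of replicate 2 is drawn downwards in blue (the 2 libraries' signals have no stated common scale), and filled circles mark a C/EBP match. Regions in replicate 1 only lay between shared ones at Thbs1 and Cxcr4, and all 6 at Dgkh were in replicate 1 only.

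The genes of the C/EBP family themselves were chosen after the motif was seen, and the share to set beside them is the 18.7% of all distal regions. Cebpa had 2 of 4 in replicate 1 only, 20.7 and 31.8 kb downstream, with signals of 6.39 and 6.83. Cebpb had 1 of 9, Cebpe 1 of 2, Cebpd 0 of 3 and Cebpg 0 of 2.

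The 10 strongest regions in replicate 1 only had signals of 15.1 to 20.4. The other distal regions, with a median of 9.21, reached 41.3. The highest, 20.4, lay in an intron nearest Nedd4l, a ubiquitin ligase gene, on chromosome 18, and in the joint list its −log10 p was 68.1 in the first input and 12.996 in the second. Usp32 followed with 17.7 (chr11:85003517-85003944, an intron), with −log10 p of 56.1 in the first input and 5.15 in the second. Nfkbiz, a regulator of NF-κB that is induced in inflammation, had 17.4 at 131 kb from its TSS, with 59.7 in the first input and 5.15 in the second. Cop1, a ubiquitin ligase that works with TRIB1 on C/EBPα, had 16.3 at 45.3 kb upstream, Ctsh, encoding cathepsin H, 16.3 at 11.1 kb upstream, and neither region was in the joint list. The other 5 of the first 10 lay nearest Vmn2r20 (16.1, with 1 other copy and so uncertain), Adgb (15.8), March1, which regulates MHC class II (15.3), Kif2c, a mitotic kinesin (15.2), and Pde1a, a phosphodiesterase (15.1). The windows nearest Usp32, Cop1, Adgb and Pde1a held a C/EBP match.

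Most regions in replicate 1 only stood alone. With summits chained at 20 kb or less, 3344 had no other such region in their locus, 364 loci had 2, and 75 loci had 3 or more, holding 246 regions in all. The 3 loci with 5 regions lay at Rasa2, a RAS inhibitor, over 26.035 kb (chr9:96619012-96645047, signals 5.93 to 12.98), at Kif13b, a kinesin, over 39.6 kb (7.03 to 8.02), and at Sh3bp5, a partner of the B cell kinase BTK, over 32.6 kb (5.30 to 9.16). No other distal region of replicate 1 lay inside any of the 3. C/EBP matches were present in 3 of 5 regions at Sh3bp5, 2 of 5 at Kif13b and 0 of 5 at Rasa2. The next 2 by number and then by summed signal, with 4 regions each, lay at Slc44a3, a choline transporter-like gene, and at Tmx4, a thioredoxin-related membrane protein gene. Among the other loci with 4 regions were those of Dgkh, Thbs1 and Cybb.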

How the data were processed

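ATAC-seq peak lists of 2 libraries on mm10 were used, per the labels. The sources used here give no aligner, peak caller or handling of the insertion offset, and read depth is unknown. The authors deposited for each peak a signal with no stated control or scaling, an IDR score, a −log10 p and a summit offset. The deposited signal and score ranked and described peaks within a list, and the deposited −log10 p was read from ranked lists. Overlapping peaks were merged, and the summit and signal came from the peak of highest signal. TSSs and gene parts came from GENCODE M21 and windows from GRCm38.p6, on 21 chromosomes. Motifs were searched as letters on both strands. Other copies were found with blastn 2.17.0 (95% identity over 80% of the window). Scripts ran in python 3.11.15 with numpy 2.4.6, and merging, distances and motif search were tested on simulated data.

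The regions, the 16 gene lists (271 entries, all matched) and the 18 motifs were chosen with earlier results of these data known. Genes named are the 12 nearest most regions, those nearest the 10 highest signals, up to 3 per list and those at the first 5 loci; others were chosen after their values were seen. No sequence of chromosome 18 is printed, and some genes of the lists are counted but not reported here by name. Alternatives were other lists and overlaps of replicate 2, other distal distances, TSSs of all biotypes, above-median signal, all distal regions without replicate 2, and other windows, gene assignments and chaining distances.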

Additional observations from a re-analysis of the deposited data

How the results depend on the processing

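Over 122 recomputed values, 69 moved by less than the main value's counting interval (counts, by less than 1.5 times). In 11 of 11 alternatives with a comparison, C/EBP matches were more frequent in the regions in replicate 1 only than in the other distal regions, at 13.7% to 31.2%. The share was 15.1% with the thresholded list of replicate 2 alone, 21.1% where its peaks had to cover 50% of the region, 25.2% above the median signal, 13.7% with 50 bp to each side and 30.5% with 200 bp, and 31.2% outside the replicated list, an alternative chosen after seeing the data. The granulocyte share was above that of all distal regions in 8 of 9 alternatives, and below it above the median signal (7.14% against 11.0%). With the thresholded list alone it was 64.0% (50.1 to 75.9) against 55.1% of all distal regions, so that the interval included the background.

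With the thresholded list alone, 12681 regions (55.1% of distal regions) were in replicate 1 only, 66.1% of them in the ranked list of replicate 2, 44.5% intronic and in 561 loci of 3 or more. With 50% coverage the share was 24.1% and the ranked overlap 22.7%, and with the ranked list added the overlap was 0% by construction. Summits over 5 kb from a TSS were 44.2% intronic at a median of 27.4 kb, and TSSs of all biotypes gave a share of 19.3%. Above the median signal there were 1135 regions (11.0%), 41.5% intronic, at a median of 28.4 kb and in 2 loci. Chaining at 10 kb gave 37 loci and at 50 kb 198.

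Without replicate 2 every distal region counts: 23033 regions, 81.4% of them in the ranked list, 44.1% intronic, at a median of 22.5 kb, 12.6% with a C/EBP match and in 1913 loci. Without replicate 1 there is nothing to define. No paired analysis was possible because the series has 1 group. The limits are that each side is 1 library, that read depth is unknown, and that a missing peak does not show closed DNA: replicate 1's thresholded list held 53911 peaks and replicate 2's 33493.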
